A study of Rattus norvegicus with 64 samples.

Results

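The levels of 8 genes of epithelial character were followed in the entorhinal cortex of the developing rat: the keratin genes Krt8, Krt18, and Krt19, the adhesion genes Cdh1 and Mpzl2, the uroplakin gene Upk1b, the calmodulin-like gene Calml4, and the transporter gene Slc47a1. These 8 of the 17260 genes in the files were listed by name as genes of arachnoid or epithelial type, and were selected on their measured values in part, since genes with high levels in layer II (LII) were chosen. Their difference between layers is therefore given as a description without a test, and tests are given for age and region within LII. All 8 genes passed the filter on low counts among the 32 LII samples.

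Total RNA came from Long Evans rats at postnatal days 2, 9, 23, and 45 (P2, P9, P23, and P45). Tissue of LII or of layers III to VI together (LDeep) was dissected by eye from unstained slices of the medial (MEC) or the lateral (LEC) entorhinal cortex. Each of the 16 combinations of region, layer, and age had 5 replicates in the P2 rats, 4 in the P9 rats, 3 in the P23 rats, and 4 in the P45 rats, for a total of 64 samples, and the labels name no allele or agent for any of them. The labels do not say which samples shared an animal, so that p-values measure the spread between samples that may in part be technical. The samples were pieces of whole tissue, so that they held every cell type of the cut, and fewer cells of a type cannot be told apart from less RNA per cell.

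The arachnoid is the middle sheet of the meninges. Unlike the collagen-making fibroblasts of the pia and arachnoid, its outer barrier cells are joined by tight and adherens junctions, contain keratins, and carry transporters that keep the cerebrospinal fluid apart from the blood. Keratin filaments are built from pairs of a type II and a type I chain, and keratin 8 (type II) pairs with keratin 18 or 19 (type I) in simple epithelia. Krt8 and Krt18 lie next to each other in the genome.

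To show how close the genes of this pair are in place and how their start regions differ, the 250 bases before the annotated start of Krt8 and Krt18 are given here, with those of Upk1b, which had the fewest counts outside LII. The RefSeq table of build GRCr8 held such a window for 4 of the 8 genes, the fourth being Calml4. Capitals mark every match, on either strand, to the letters CANNTG (an E-box, of which CACCTG is one form) or GGGCGG (a GC box).
Krt8, - strand of chr7:135010340-135010589: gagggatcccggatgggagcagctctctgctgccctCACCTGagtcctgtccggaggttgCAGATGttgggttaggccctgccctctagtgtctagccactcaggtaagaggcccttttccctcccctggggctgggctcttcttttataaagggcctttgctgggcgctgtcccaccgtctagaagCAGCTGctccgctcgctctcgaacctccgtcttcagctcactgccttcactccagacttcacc
Krt18, + strand of chr7:135035918-135036167: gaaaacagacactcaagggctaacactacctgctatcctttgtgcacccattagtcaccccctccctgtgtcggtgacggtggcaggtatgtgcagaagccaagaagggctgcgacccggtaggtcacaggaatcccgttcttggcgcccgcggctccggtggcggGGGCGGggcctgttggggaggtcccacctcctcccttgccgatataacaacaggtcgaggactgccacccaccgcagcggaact
Upk1b, + strand of chr11:75459131-75459380: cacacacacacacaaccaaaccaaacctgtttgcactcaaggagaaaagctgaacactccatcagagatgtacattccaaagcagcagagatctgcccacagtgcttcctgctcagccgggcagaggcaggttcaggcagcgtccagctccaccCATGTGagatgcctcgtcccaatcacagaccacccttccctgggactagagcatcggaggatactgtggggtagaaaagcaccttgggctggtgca
The Krt8 window held CANNTG at 214, 190, and 63 bases before the start, the first of them as CACCTG, and no GGGCGG. The Krt18 window held GGGCGG at 84 bases before the start and no CANNTG. The Upk1b window held CANNTG at 96 bases before the start, and that of Calml4 held it at 53. Among all 33469 windows of this length in the table, 65.54% held CANNTG, 15.9% held CACCTG, and 30.47% held GGGCGG, so these matches are common and describe the letters alone.

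In the build of the files (Rn6), Krt8 (9 exons, minus strand, chr7:143596511-143603745) and Krt18 (7 exons, plus strand, chr7:143629455-143633131) were 25709 bases apart. Krt19 (6 exons) lay on the minus strand at chr10:88055843-88060560 and Slc47a1 (17 exons) on the minus strand at chr10:47632352-47666876. The others were all on the plus strand. Upk1b (8 exons) was at chr11:64522215-64553233, Mpzl2 (6 exons) at chr8:49342067-49353080, Calml4 (5 exons) at chr8:67753279-67765358, and Cdh1 (16 exons) at chr19:38768467-38838395. Pairs were counted by strand.

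Counts per sample on all genes ranged from 3894334 to 11439143. CPM is the count per 1000000 counts of the library, whose size was scaled by trimmed mean of M-values (TMM) factors. Before this scaling, 1 count stood for 0.0874 to 0.257 CPM in LII. Some MEC libraries stood apart in genes of the meninges. In LII at P2, replicates 1 and 3 held summed levels of only 47.2 and 72.4 CPM over 16 marker genes of meningeal fibroblasts, while replicates 2, 4, and 5 held 1607, 1696, and 939 CPM. The LDeep library of P2 replicate 1 held 1331 CPM, so that in this pair the library labelled LDeep was above the library labelled LII. Replicate 1 of LII also held 2422 counts of Zic4, a zinc finger gene, against 10 to 40 in the others of its group. At P45, replicate 4 of MEC LII held 467 CPM of the fibroblast markers, against 1328 to 1581 CPM in the other 3, together with 278 counts of Ttr, the transthyretin gene of the choroid plexus. Age changes of the 8 genes and counts of the epithelial and meningeal lists in the MEC are therefore also given without the LII libraries of P2 replicates 1 and 3. Values with P45 replicate 4 left out as well are given where this changed a call or a list count in the MEC further. Neuronal markers were abundant in every group, with summed levels of 7 genes between 5247 and 8839 CPM.

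Layer II held nearly all of the counts of 5 of the 8 genes. In the LEC, Upk1b had 347 counts over the 16 LII samples and 4 counts over the 16 LDeep samples, of which 14 had none. Mpzl2 had 569 and 17 counts, Slc47a1 1547 and 39, Cdh1 2050 and 81, and Krt8 502 and 38. In the MEC the same order of totals was 415 and 19 for Upk1b, 825 and 42 for Mpzl2, 3162 and 151 for Slc47a1, 2834 and 200 for Cdh1, and 1017 and 93 for Krt8. Krt19 and Calml4 were less set apart, with 811 and 403 counts of Krt19 and 447 and 134 counts of Calml4 in LII and LDeep of the MEC. The counts of Krt18 went against the description of a gene high in LII, since it had 140 counts in LII and 323 in LDeep of the LEC, and 327 and 211 in the MEC.

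**Figure D1:**
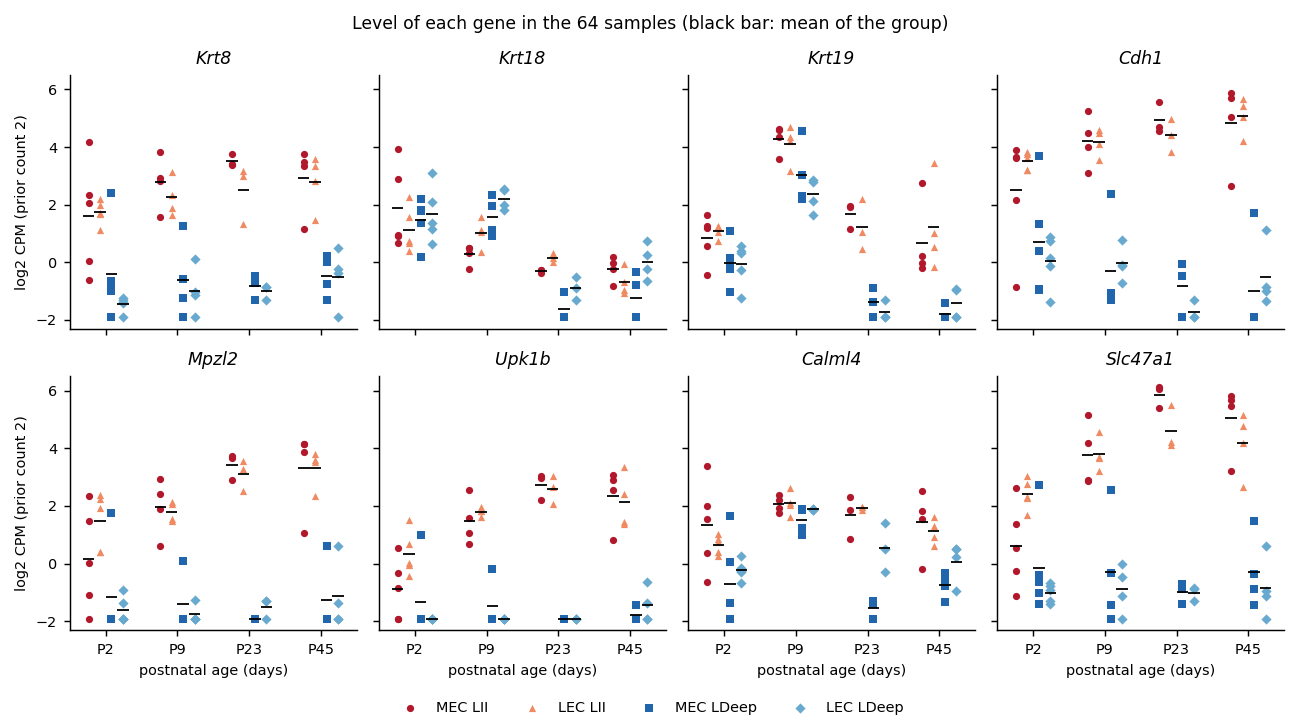
Level of each gene in all 64 samples, in log2 CPM (prior count 2), by postnatal age. Points are samples, coloured by region and layer, and black bars are group means. Group means of LII lie above those of LDeep for all genes but Krt18. The means of Krt18 are lower in LII than in LDeep at P9 in both regions, and at P2 and P45 in the LEC.

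Samples of the same number were compared between layers to see how even this was. In the LEC, LII was above LDeep in all 16 pairs for 6 genes (Krt8, Krt19, Upk1b, Mpzl2, Cdh1, and Slc47a1), as it was for 5.34% of the 12521 genes that passed the filter in all samples. In the MEC this held for 2 genes (Krt8 and Calml4), with 2% of all genes. When the pairs of P2 replicates 1 and 3 were left out it held for 6 genes in the MEC (Krt8, Upk1b, Mpzl2, Cdh1, Calml4, and Slc47a1), with 8.1% of all genes. The genes were chosen for this contrast, and nothing is read from these counts.

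The mean layer difference in log2 CPM over 16 pairs of the LEC was 4.69 ± 1.33 (SD) for Cdh1, 4.56 ± 1.15 for Slc47a1, 3.84 ± 1.08 for Mpzl2, 3.38 ± 1.08 for Upk1b, and 3.29 ± 0.66 for Krt8. It was 2.01 ± 1.32 for Krt19, 0.85 ± 0.68 for Calml4, and -0.45 ± 0.89 for Krt18. Only Krt18 had a mean below 0. In the MEC the differences were 4.23 ± 2.52 for Cdh1, 3.87 ± 2.80 for Slc47a1, 3.41 ± 2.37 for Mpzl2, 3.15 ± 1.35 for Krt8, and 2.78 ± 2.16 for Upk1b. They were 1.92 ± 1.34 for Calml4, 1.78 ± 1.43 for Krt19, and 0.30 ± 1.53 for Krt18. With P2 replicates 1 and 3 left out the MEC means were 4.93 for Cdh1, 4.57 for Slc47a1, 4.11 for Mpzl2, 3.44 for Krt8, 3.38 for Upk1b, 1.98 for Calml4, and 1.97 for Krt19, while that of Krt18 went below 0, to -0.04. Since many LDeep counts were 0, these differences depend on the prior count and understate the change of the low genes.

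**Figure D2:**
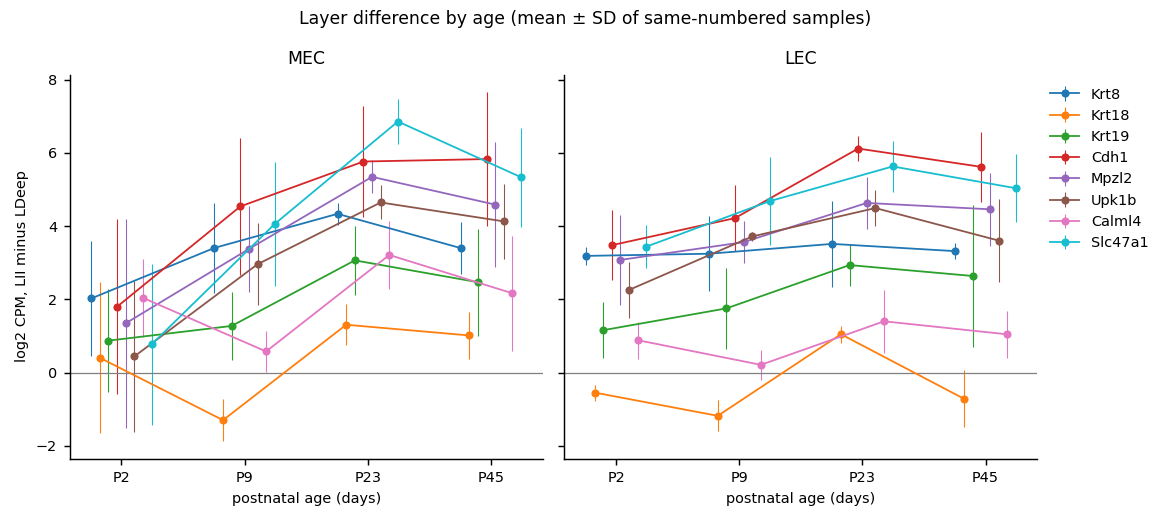
Difference in log2 CPM between LII and LDeep samples of the same number, by age, in the MEC (left) and the LEC (right). Points are means and bars are SD of 3 to 5 pairs; all genes but Krt18 have means above 0 at each age, and Krt18 lies below 0 at P9 in the MEC and at P2, P9, and P45 in the LEC.

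Levels between genes were compared per length, as CPM per kb of exon. In MEC LII at P23 the order was Slc47a1 with 33.9 ± 8.74 (SD, n = 3), Cdh1 with 7.34 ± 3.03, Krt8 with 6.72 ± 1.07, Upk1b with 3.73 ± 1.12, Calml4 with 3.58 ± 1.8, Mpzl2 with 3.34 ± 0.967, Krt19 with 2.18 ± 0.666, and Krt18 with 0.396 ± 0.018. Slc47a1 stood above the rest and Krt18 below, whereas Cdh1 and Krt8 did not differ beyond their spread, nor did Upk1b, Calml4, and Mpzl2. Krt18 had 4 counts in each of these samples, so that its small SD leaves out the counting error. In LEC LII at P2 the highest were Slc47a1 with 3.06 ± 1.10 (n = 5) and Cdh1 with 2.61 ± 0.546, and the lowest was Upk1b with 0.661 ± 0.486. In MEC LII at P2 the spread was as large as the mean for several genes, with 4.03 ± 4.37 for Calml4, 3.93 ± 4.38 for Krt18, 3.34 ± 4.33 for Krt8, and 1.16 ± 1.31 for Slc47a1 (n = 5), so these could not be ordered. At P9 Krt19 had the highest mean of the 8, with 14.5 ± 4.18 in the MEC and 13.2 ± 5.14 in the LEC (n = 4). Slc47a1 came next with 9.64 ± 7.62 and 8.29 ± 3.65, and did not differ from Krt19 beyond their spread.

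Age was tested in LII as the mean of P23 and P45 against the mean of P2 and P9. Slc47a1, Upk1b, and Mpzl2 rose and Krt18 fell in both regions, Cdh1 rose and Krt19 fell in the MEC, and neither Krt8 nor Calml4 passed the test. In the MEC 6 of the 8 genes were differentially expressed between ages, 4 higher and 2 lower in older rats, where 68.3% of the 12190 genes tested were called. In the LEC 4 genes were, 3 higher and 1 lower, where 65% of all genes were called. These shares are near those of all genes, so the number of calls is no result about these genes, while their directions and sizes are given one by one. The median log2 fold change (LFC) of the 8 genes was 0.95 in the MEC and 0.83 in the LEC, and that of all genes tested was -0.03 and -0.00.

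**Figure D3:**
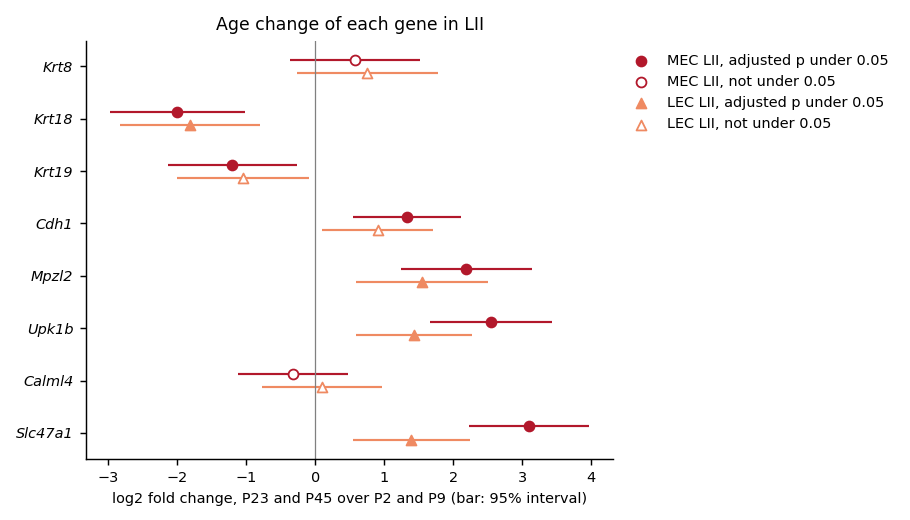
Age change of each gene in LII as log2 fold change of P23 and P45 over P2 and P9, in the MEC (circles) and the LEC (triangles), with 95% intervals. Filled symbols are differentially expressed at a Benjamini-Hochberg (BH) adjusted p under 0.05 in the edgeR quasi-likelihood test; Slc47a1 has the largest rise, 3.10 in the MEC.

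Krt8 encodes the type II chain. In MEC LII its levels at P2 were 18, 4.80, 0.379, 3.90, and 0.755 CPM, at P9 13.9, 6.87, 7.33, and 2.68, at P23 10, 10.3, and 13.2, then at P45 9.99, 13.3, 10.8, and 1.97. The spread at P2 covered all the later values, with replicate 1 highest and replicate 3 lowest. In LEC LII the levels ran from 1.93 to 4.34 CPM at P2 (median 2.99), from 2.84 to 8.51 at P9, from 2.27 to 8.79 at P23, then from 2.51 to 11.6 at P45, so the ages overlapped. The LFC with age was 0.57 ± 0.48 (SE; edgeR adjusted p = 0.295) in the MEC and 0.75 ± 0.52 (adjusted p = 0.208) in the LEC, with 95% intervals from -0.37 to 1.52 and from -0.27 to 1.77. In the fit that lacked P2 replicates 1 and 3 of the MEC the LFC was 1.05 and passed the test (adjusted p = 0.0193). It was 1.25 (adjusted p = 0.0101) with replicate 1 of P2 left out. With all samples it also passed in limma voom with quantile normalization (1.05, adjusted p = 0.0340). The same held with the replicate block, a limma voom fit without quantile normalization (1.24, adjusted p = 0.0226). From P2 to P9 in the MEC the LFC of Krt8 was 0.42 (adjusted p = 0.639), and it passed without P2 replicate 1 (1.76, adjusted p = 0.0264) and with the 3 MEC libraries left out (1.38, adjusted p = 0.0491).

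Krt18, the usual type I partner of Krt8, fell with age in both regions. In MEC LII its levels at P2 were 7.20, 1.60, 15.2, 1.65, and 1.32 CPM, at P9 1.16, 1.15, 0.591, and 0.988, at P23 0.558, 0.555, and 0.514, then at P45 0.714, 0.591, 0.862, and 0.302. All samples of P2 were above all samples of the later ages, and P45 overlapped both P9 and P23. In LEC LII P2 ranged from 1.04 to 4.51 CPM (median 1.41), P9 from 1.01 to 2.72, P23 from 0.730 to 0.972, and P45 from 0.207 to 0.683. Counts of Krt18 at P45 were low, at 2 to 7 in MEC LII and 1 to 4 in LEC LII. Krt18 fell by 2.00 ± 0.50 on the log2 scale in the MEC (adjusted p = 0.000846) and by 1.82 ± 0.52 in the LEC (adjusted p = 0.00302). Without P2 replicates 1 and 3 of the MEC, which held the highest levels, the change there was -1.08 (adjusted p = 0.00713). In LDeep the P9 level was not below that of P2, with MEC means of 2.79 CPM in the P2 rats and 2.97 in the P9 rats, and P23 and P45 had 0.0760 and 0.209 CPM. In LDeep of the LEC the means were 3.58, 4.46, 0.282, and 0.815 CPM, and each sample of P9 (3.26 to 5.53) was above each of P23 (0.141 to 0.430) and P45 (0.374 to 1.39). Ages were not tested in LDeep.

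Per length, the pair was at uneven levels. Krt8 was above Krt18 in 14 of 16 LII samples of the MEC and in 14 of 16 of the LEC, and in all LII samples at P9, P23, and P45. In LDeep of the LEC this held in 2 of 16 samples. In LDeep of the MEC it held in 9 of 16, with 1 of 5 at P2, 1 of 4 at P9, 3 of 3 at P23, and 4 of 4 at P45. At P45 in MEC LII the means were 5.41 ± 2.95 CPM per kb for Krt8 and 0.451 ± 0.173 for Krt18 (SD, n = 4). The sum of Krt18 and Krt19 was below Krt8 in 9 of 16 LII samples of the MEC and 5 of 16 of the LEC, and in none of the 8 LII samples at P9. Per length, the RNA of Krt8 was thus above that of Krt18 in most LII samples and below it in most LDeep samples of the LEC. Protein was not measured. LDeep of the MEC was divided by age. Since genes were chosen partly for high LII values, this contrast between layers is a description.

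**Figure D4:**
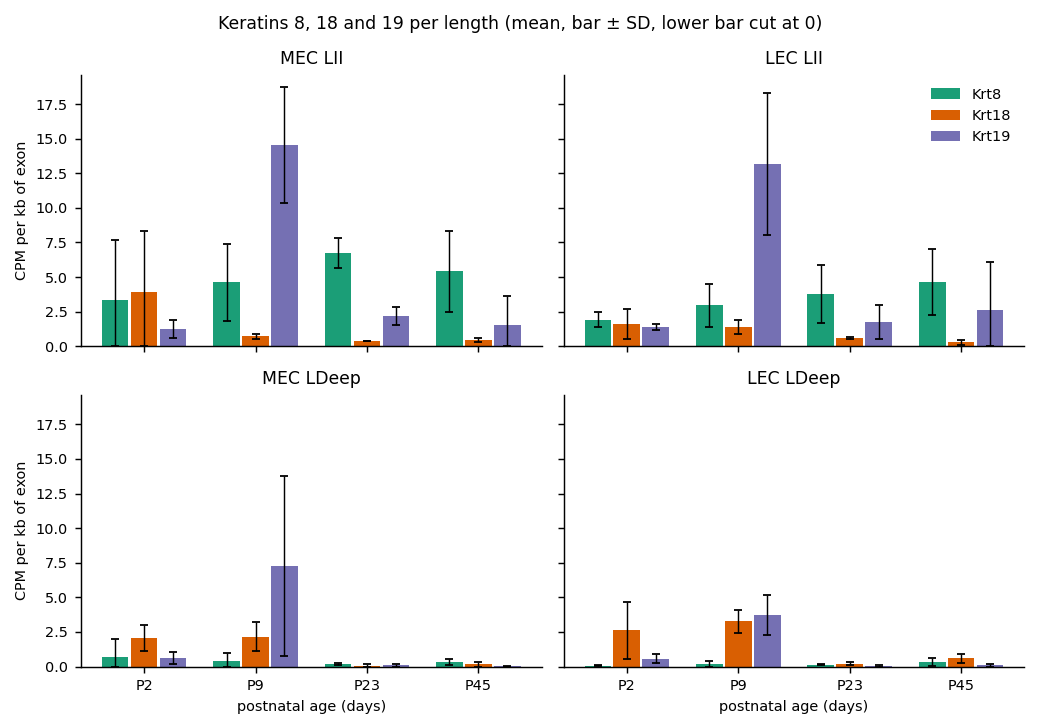
Keratins 8, 18, and 19 in CPM per kb of exon by age in LII (top) and LDeep (bottom) of both regions. Bars are group means with SD (3 to 5 samples, lower end kept at 0); Krt19 peaks at P9 in every panel, at 14.5 in MEC LII, and Krt18 exceeds Krt8 in LDeep at P2 and P9.

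Krt19, a type I keratin that lacks the usual tail domain, had a peak at P9. In MEC LII its levels were 1.2, 2.14, 1.99, 2.85, and 0.472 CPM at P2, 24, 11.9, 24.2, and 20.1 at P9, 1.95, 3.61, and 3.47 at P23, then 0.714, 0.886, 6.40, and 0.605 at P45. In LEC LII they were 1.42 to 2.11 CPM at P2, 20.1, 25.8, 18.2, and 8.71 at P9, 4.31, 1.78, and 1.09 at P23, then 1.77, 0.620, 10.8, and 1.16 at P45. No other age reached the P9 values of the MEC, while in the LEC replicate 3 of P45 was above the lowest P9 sample. From P2 to P9 Krt19 rose by an LFC of 3.56 ± 0.60 in the MEC (adjusted p = 4.29e-05) and 3.23 ± 0.61 in the LEC (adjusted p = 0.000264). From P9 to P23 it fell by 2.76 ± 0.69 (adjusted p = 0.00205) and by 2.94 ± 0.72 (adjusted p = 0.00195). LDeep had the peak as well, at 4.67, 4.31, 23.2, and 7.82 CPM in the MEC and 2.82, 4.13, 6.93, and 6.71 in the LEC at P9, against at most 1.85 CPM at P2 and at most 0.278 CPM at P23 and P45. The contrast of the older with the younger pair of ages, which averages over this peak, was -1.2 ± 0.48 in the MEC (adjusted p = 0.0267) and -1.05 ± 0.49 in the LEC (adjusted p = 0.0620). Without P2 replicates 1 and 3 the MEC value was -1.20 (adjusted p = 0.0413). The MEC call was lost when replicate 4 of P2 (adjusted p = 0.0591), replicate 1 of P23 (adjusted p = 0.0693), or replicate 1 of P45 (adjusted p = 0.0538) was left out, and without P2 replicates 1 and 3 and P45 replicate 4 of the MEC together (adjusted p = 0.0732). In the LEC the change was -1.84 (adjusted p = 3.5e-05) without replicate 3 of P45, and it also passed without P9 replicate 4 (adjusted p = 0.0486) or P23 replicate 1 (0.0339). With all samples it passed in DESeq2 (-1.02, adjusted p = 0.0471), in limma voom with quantile normalization (-1.69, adjusted p = 0.00453), with all 64 samples in the edgeR fit (adjusted p = 0.0494), with the LEC samples alone (-1.07, adjusted p = 0.0413), and with the replicate block (-1.56, adjusted p = 0.00875).

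Among all keratin genes the 3 were not alone in being counted. Of 45 keratin genes in the files, 32 had at least 10 counts over the LII samples and 9 passed the filter. Krt8 and Krt19 had the highest mean levels in LII, at 6.67 and 6.57 CPM, with 0.508 and 2.18 CPM in LDeep. Krt2, Krt26, and Krt10 followed at 3.05, 2.98, and 1.8 CPM, and they had 3.53, 3.12, and 1.96 CPM in LDeep. Krt5 and Krt14, which mark the basal layer of the epidermis, had 29 and 2 counts over all LII samples.

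Cdh1 encodes E-cadherin, the calcium-dependent adhesion protein of epithelial adherens junctions. In MEC LII its levels were 12.1, 12.3, 0.284, 14.6, and 4.25 CPM at P2, 38.2, 15.7, 22.2, and 8.33 at P9, 25.8, 47.6, and 23.4 at P23, then 58.3, 51.6, 33.1, and 6.05 at P45. Apart from P45 replicate 4, all samples of P23 and P45 were above all of P2. In LEC LII they were 8.92 to 14.0 CPM at P2, 11.6 to 23.8 at P9, 13.9 to 30.8 at P23, then 18.4 to 50.5 at P45. Cdh1 rose by an LFC of 1.33 ± 0.40 in the MEC (adjusted p = 0.00464), where it was 1.21 (adjusted p = 0.00352) without P2 replicates 1 and 3, and had 0.90 ± 0.41 in the LEC (adjusted p = 0.0550). The LEC value passed the test in 6 of the 25 alternatives, among them the fit of the LEC samples alone (LFC 0.89, adjusted p = 0.000932) and those without P2 replicate 3 (adjusted p = 0.0279), P23 replicate 2 (0.0423), or P45 replicate 4 (0.0190). No single step between neighbouring ages passed for Cdh1 in edgeR with all LII samples. From P2 to P9 in the MEC its LFC was 1.29 (adjusted p = 0.0663), and this passed in 5 of 25 alternatives, namely limma voom with quantile normalization (1.85, adjusted p = 0.0392), the replicate block (2.12, adjusted p = 0.0323), and the fits without P2 replicate 4 (1.57, adjusted p = 0.0427), P9 replicate 4 (1.55, adjusted p = 0.0358), or P45 replicate 4 (1.29, adjusted p = 0.0379).

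Mpzl2, an adhesion protein of the immunoglobulin superfamily found in epithelia, had 0.200, 4.80, 0, 2.55, and 0.755 CPM at P2 in MEC LII, 7.44, 3.44, 5.08, and 1.27 at P9, 7.26, 12.9, and 12.5 at P23, then 17.7, 14.5, 17.4, and 1.81 at P45. In LEC LII it had 1.04 to 4.89 CPM at P2, 2.52 to 4.16 at P9, 5.51 to 11.6 at P23, then 4.83 to 13.6 at P45. In the LEC the 2 younger and the 2 older ages overlapped only by P2 replicate 1 and P45 replicate 4. Mpzl2 rose by an LFC of 2.19 ± 0.48 in the MEC (adjusted p = 0.000233) and by 1.55 ± 0.49 in the LEC (adjusted p = 0.00668). With P2 replicates 1 and 3 left out the MEC value was 1.81 (adjusted p = 0.000283).

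Upk1b encodes a tetraspanin of the plaques of the bladder lining. It was the lowest of the 8 genes at P2, with 0, 0.534, 0, 1.2, and 0.283 CPM in MEC LII, followed by 5.62, 1.35, 2.72, and 1.84 at P9, 4.33, 7.91, and 7.59 at P23, then 8.21, 5.61, 7.14, and 1.51 at P45. In LEC LII it had 0.473 to 2.60 CPM at P2, 2.84 to 3.62 at P9, 3.89 to 7.96 at P23, then 2.33 to 10.1 at P45. In both regions no sample of P2 reached any sample of P9. Upk1b rose with age by an LFC of 2.55 ± 0.45 in the MEC (adjusted p = 1.37e-05) and 1.44 ± 0.43 in the LEC (adjusted p = 0.00458). The step from P2 to P9 was 2.96 ± 0.69 in the MEC (adjusted p = 0.00143), and 1.44 ± 0.62 in the LEC (adjusted p = 0.0756), where every P9 sample was above every P2 sample. In the fit that lacked P2 replicates 1 and 3, which had 0 counts, the MEC values were 2.13 (adjusted p = 4.26e-05) for age and 2.09 (adjusted p = 0.0198) for the step. The library with 0 counts of replicate 1 had 12 counts in its LDeep partner, which was 1 of 3 LDeep samples of the MEC with any. Of 4 other uroplakin genes in the files none passed the filter, with 80 counts of Upk2, 34 of Upk1a, 9 of Upk3a, and 0 of Upk3bl over all LII samples.

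Calml4 encodes a calmodulin-like protein known from the complexes that link microvilli on epithelial surfaces. In MEC LII it had 10.2, 2.67, 0.379, 3.75, and 1.04 CPM at P2, 4.96, 3.12, 3.55, and 4.38 at P9, 1.53, 3.33, and 4.76 at P23, then 2.68, 3.25, 5.54, and 0.605 at P45, with all ages overlapping. In LEC LII it had 0.946 to 1.78 CPM at P2, 2.84 to 5.88 at P9, 3.40 to 3.65 at P23, then 1.25 to 2.78 at P45. The LEC samples of P9 were thus all above those of P2. Its LFC with age was -0.32 ± 0.41 in the MEC (adjusted p = 0.491) and 0.10 ± 0.44 in the LEC (adjusted p = 0.855), with 95% intervals from -1.12 to 0.48 and from -0.77 to 0.97. The MEC value was 0.18 (adjusted p = 0.648) without P2 replicate 1, -0.01 (adjusted p = 0.979) without P2 replicates 1 and 3, and 0.16 (adjusted p = 0.612) with the 3 MEC libraries left out, so its sign depended on these libraries. From P2 to P9 it rose by 1.62 ± 0.59 in the LEC (adjusted p = 0.0373), and this call was lost in 6 of 23 alternatives, among them those without P2 replicate 4 (adjusted p = 0.0815) or P9 replicate 1 (0.0598), 2 (0.0708), or 3 (0.130). LDeep also held Calml4 at P9, at 1.73 to 3.5 CPM in the MEC and 3.36 to 3.5 CPM in the LEC, where the layers overlapped. Of 4 other genes of the microvillar complex in the files, only Anks4b passed the filter, and it fell by 2.69 ± 0.40 in the MEC (adjusted p = 1.01e-06) and by 1.78 ± 0.35 in the LEC (adjusted p = 6.58e-05).

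Slc47a1 encodes MATE1, a proton antiporter that extrudes organic cations. In MEC LII it had 1.2, 2.31, 0.189, 5.86, and 0.566 CPM at P2, 35.4, 7.18, 17.9, and 7.06 at P9, 41.7, 67, and 69.2 at P23, then 44.2, 56.0, 50.5, and 8.92 at P45. In LEC LII it had 4.73, 6.46, 7.99, 2.97, and 4.58 CPM at P2, 12.3, 23.8, 12.8, and 9.12 at P9, 45.3, 18.3, and 17.1 at P23, then 27.0, 17.8, 35.8, and 6 at P45. In both regions the samples of P2 lay below all of P9, and those of P23 in the MEC above all of P9. Slc47a1 rose with age by an LFC of 3.10 ± 0.44 in the MEC (adjusted p = 5.14e-07), the largest change of the 8 genes, and by 1.39 ± 0.43 in the LEC (adjusted p = 0.00587). In the MEC both the step from P2 to P9 (3.18 ± 0.66, adjusted p = 0.000429) and that from P9 to P23 (1.8 ± 0.60, adjusted p = 0.0170) passed the test, the latter being lost in 4 of 25 alternatives, among them those without P9 replicate 2 (adjusted p = 0.0595), P9 replicate 4 (0.0642), or P23 replicate 3 (0.0559). Without P2 replicates 1 and 3 the MEC age change was 2.82 (adjusted p = 2.7e-06). Its relative Slc47a2 was low, at 0.946 CPM in LII and 1.38 in LDeep, and fell by 1.71 ± 0.34 in the MEC (adjusted p = 5.78e-05) and by 1.21 ± 0.39 in the LEC (adjusted p = 0.00736).

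By steps between neighbouring ages, calls were made up to P23. From P2 to P9, 4 of the 8 genes were called in the MEC (Krt19, Upk1b, and Slc47a1 higher, Krt18 lower), with 37.3% of all genes, and 2 in the LEC (Krt19 and Calml4 higher), with 30.3%. Krt18 fell by 2.50 ± 0.57 in this step of the MEC (adjusted p = 0.00121), and the change was -0.66 (adjusted p = 0.250) without P2 replicates 1 and 3. From P9 to P23, 2 genes were called in the MEC (Slc47a1 higher, Krt19 lower), with 40.3% of all genes, and 1 in the LEC (Krt19 lower), with 36.4%. With P2 replicates 1 and 3 left out the MEC count was 4, as Upk1b (LFC 1.21, adjusted p = 0.0471) and Mpzl2 (LFC 1.32, adjusted p = 0.0479) were called too. From P23 to P45 edgeR called 0 of the 8 genes in either region, with 0.082% of all genes in the MEC and 0.205% in the LEC, and none of the 8 had an unadjusted p under 0.05. Their LFC in this step ranged from -0.57 to 0.24 in the MEC and from -1.10 to 0.69 in the LEC.

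The regions were compared within LII, with the ages weighted equally. None of the 8 genes was called between MEC and LEC in edgeR or in any alternative, where 13.4% of all genes were, and none had an unadjusted p under 0.05. The LFC of MEC over LEC ranged from -0.40 ± 0.31 for Upk1b (adjusted p = 0.442, 95% interval from -1.01 to 0.21) to 0.64 ± 0.36 for Krt8 (adjusted p = 0.249, 95% interval from -0.06 to 1.34). Differences of up to these bounds therefore remain possible. The age change of the MEC minus that of the LEC was called for 0 of the 8 genes, with 1.71% of all genes, and 1 of the 8 had an unadjusted p under 0.05. That gene was Slc47a1, at 1.71 ± 0.62 (adjusted p = 0.187, 95% interval from 0.49 to 2.93), and 1.43 (adjusted p = 0.244) without P2 replicates 1 and 3. At P23 its 3 MEC samples of 41.7 to 69.2 CPM overlapped 1 of the LEC samples, that of 45.3 CPM.

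Markers of other cells were set beside these values, and their part in the age changes was not tested. Beside each count of markers that rose or fell stand the 68.3% (MEC) and 65% (LEC) of all genes called with age in either direction. Summed over the 8 genes, LII held 9.43 to 50.1 CPM at P2 and 93.2 to 153 CPM at P23 in the MEC, and 19.8 to 39.6 and 50 to 113 CPM in the LEC. The 16 fibroblast markers summed to 47.2 to 1696 CPM at P2 and 1151 to 1379 at P23 in MEC LII, and to 961 to 1782 and 1389 to 1983 in LEC LII, with none at 0 but in P2 replicates 1 and 3 of the MEC. Of these markers 5 rose and 0 fell in the MEC (median LFC 0.56), and 5 rose and 1 fell in the LEC (median 0.37). Without P2 replicates 1 and 3 of the MEC, 5 rose and 3 fell there (median 0.24). With P45 replicate 4 left out as well, 5 rose and 2 fell in the MEC (median 0.34). Col1a1 and Col3a1, which encode the fibrillar collagens of fibroblasts, had an LFC of 0.03 ± 0.49 (adjusted p = 0.960) and -0.57 ± 0.50 (adjusted p = 0.316) in the MEC. Mgp, the matrix Gla protein gene also used by vessel walls, rose by 3.09 ± 0.35 (adjusted p = 6.27e-09).

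Of 9 further genes known from arachnoid cells, 7 rose in the MEC and 5 in the LEC, none fell, and the median LFC was 1.2 and 0.72. Of all genes tested, 68.3% and 65% were called in either direction, so the number of calls is not read as a result. Without P2 replicates 1 and 3 of the MEC, 7 rose and 0 fell there (median 0.82). With P45 replicate 4 of the MEC left out as well, 6 rose and 1 fell in the LEC. Ptgds, the prostaglandin D synthase gene of the leptomeninges, rose by 2.68 ± 0.67 in the MEC (adjusted p = 0.000822) and by 1.65 ± 0.65 in the LEC (adjusted p = 0.0269). Abcg2 and Slc22a8, transporters of the arachnoid barrier and of brain vessels, rose by 2.15 ± 0.14 (adjusted p = 1.09e-13) and 1.76 ± 0.27 (adjusted p = 1.44e-06) in the MEC. Cldn11 rose by 2.37 ± 0.45 (adjusted p = 3.31e-05), but it is also a claudin of myelin and had 97.2 CPM in LDeep against 83.1 in LII. The transcription factor gene Klf5 was the one gene of this list called between regions, higher in the MEC by 0.57 ± 0.17 (adjusted p = 0.0210). The summed level of the list ran from 25 to 703 CPM at P2 and from 3783 to 5015 at P23 in MEC LII, and from 678 to 1197 and from 2874 to 4648 in LEC LII. At P2 in MEC LII, replicates 2, 4, and 5 held 563, 703, and 234 CPM. The sum is not given by gene here, so that an abundant gene can carry it. Cldn11 is also among the oligodendrocyte markers below.

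**Figure D5:**
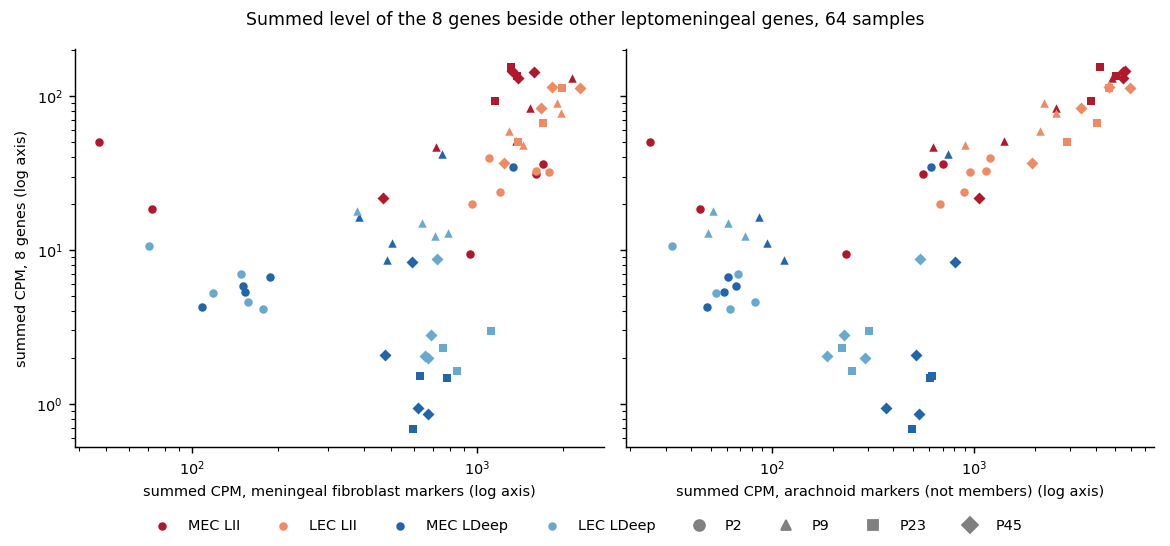
Summed CPM of the 8 genes (vertical, log axis) against the summed CPM of 16 meningeal fibroblast markers (left) and of 9 other arachnoid genes (right, log axes) in all 64 samples. Colours are region and layer and shapes are ages; 2 MEC LII samples of P2, with 47.2 and 72.4 CPM of fibroblast markers, stand far to the left of the other LII samples.

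Markers of other epithelia were counted as well, and their part in the results was not tested. Of 12 epidermal markers 9 were in the files and 5 were tested, and they summed to 8.21 to 20.9 CPM in LII and 8.19 to 22 in LDeep, and 0 rose and 3 fell in the MEC (0 and 2 without P2 replicates 1 and 3) and 1 rose and 1 fell in the LEC. The 11 choroid plexus markers, of which 6 were tested, summed to 10.6 to 56.1 CPM in LII and 2.28 to 17.6 in LDeep. In the MEC 2 of 5 tested rose and 1 fell without P2 replicates 1 and 3, and 1 rose and 1 fell without P45 replicate 4 as well. With all LII samples 1 of the 6 rose and 2 fell in the MEC, and 0 rose and 1 fell in the LEC. The one that rose was Kcnj13, a potassium channel gene also found in the leptomeninges, with an LFC of 1.91 ± 0.48 (adjusted p = 0.000851) and with 9.55 CPM in LII against 0.437 in LDeep. Of the mesothelial markers only Msln passed the filter, with 11.7 CPM in LII and 0.474 in LDeep, and rose by 1.71 ± 0.35 in the MEC (adjusted p = 7.7e-05) and 0.79 ± 0.34 in the LEC (adjusted p = 0.0423), while Wt1 and Bnc1 had 2 and 6 counts over LII. Of 4 tested ependymal markers 1 rose and 2 fell in the MEC (1 and 1 without P2 replicates 1 and 3), and 1 rose and 0 fell in the LEC (2 and 0). The 7 markers of this list, tested or not, summed to 15.6 to 328 CPM at P2 in MEC LII (median 20.3). At P23 they summed to 61.9 to 78.8, where LDeep held 19.8 to 27.1. In LEC LII they summed to 19.5 to 45.5 CPM at P2 and 62.4 to 78.6 at P23, where LDeep held 21.8 to 27.8. The summed level of the ependymal markers was thus higher in LII than in LDeep at P23. It is not given by gene here, and which cells it came from was not tested.

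Of 10 tested genes of cadherin adhesion and desmosomes, 5 rose and 3 fell in the MEC (5 and 4 without P2 replicates 1 and 3) and 2 rose and 5 fell in the LEC (3 and 5). The catenin genes Ctnnb1 and Jup, whose proteins bind the tail of E-cadherin, fell by 0.68 ± 0.07 (adjusted p = 8.74e-10) and 0.92 ± 0.12 (adjusted p = 1.54e-07) in the MEC. Evpl and Ppl, which encode the plakins envoplakin and periplakin, rose by 1.17 ± 0.42 (adjusted p = 0.0150) and 1.43 ± 0.41 (adjusted p = 0.00278) there. Evpl had 3.28 CPM in LII and 0.283 in LDeep. Between regions Ppl (0.98 ± 0.31, adjusted p = 0.0348) and Dsc2, a desmosomal cadherin (0.95 ± 0.19, adjusted p = 0.000698), were higher in the MEC, and Dsc2 was called for the region difference of the age change as well (1.63 ± 0.37, adjusted p = 0.0179).

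Of 14 tested tight junction genes 8 rose and 3 fell in the MEC (7 and 2 without P2 replicates 1 and 3), and 8 rose and 1 fell in the LEC. With P45 replicate 4 left out as well, 8 rose and 3 fell in the MEC. Cldn4, a claudin of tight epithelia, rose by 4.53 ± 0.45 (adjusted p = 5.81e-10) and 3.62 ± 0.51 (adjusted p = 4.79e-07), with mean levels of 1.42 CPM in LII and 1.28 in LDeep. Tjp1 and Ocln, junction genes of vessels as well as epithelia, rose by 0.52 ± 0.12 (adjusted p = 0.000373) and 0.66 ± 0.14 (adjusted p = 0.000190) in the MEC. Of 8 tested epithelial identity genes 2 rose and 4 fell in the MEC (3 and 4 without those libraries) and 3 rose and 4 fell in the LEC. Epcam, the epithelial cell adhesion molecule gene, fell by 1.56 ± 0.28 (adjusted p = 2e-05) and 1.79 ± 0.30 (adjusted p = 7.35e-06), and had 13.1 CPM in LII and 10.7 in LDeep. Of 5 tested repressors of the epithelial programme, 0 rose and 2 fell in the MEC (0 and 3 without those libraries) and 1 rose and 1 fell in the LEC (1 and 2). Zeb2, a repressor of Cdh1 that neurons also express, fell by 0.53 ± 0.14 in the MEC (adjusted p = 0.00144) and had 127 CPM in LII and 179 in LDeep.

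Of 12 tested organic ion transporters 5 rose and 3 fell in the MEC, both with and without P2 replicates 1 and 3, and 4 rose and 2 fell in the LEC (4 and 3). Slc22a2, an uptake carrier for organic cations, rose by 1.61 ± 0.47 in the MEC (adjusted p = 0.00349) and had -0.25 ± 0.47 in the LEC (adjusted p = 0.650). The relatives of Mpzl2 moved apart: Mpzl1 fell by 1.34 ± 0.09 (adjusted p = 1.86e-13) and Mpzl3 rose by 1.8 ± 0.27 (adjusted p = 9.79e-07) in the MEC.

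Other genes of these lists were called between the regions. Ovol2, an epithelial transcription factor gene, was higher in the MEC by 2.01 ± 0.51 (adjusted p = 0.00855), Cldn3 by 0.78 ± 0.23 (adjusted p = 0.0243), and Zeb1 by 0.25 ± 0.07 (adjusted p = 0.0227). Twist1 (-0.87 ± 0.23, adjusted p = 0.0117), Nov (-0.78 ± 0.23, adjusted p = 0.0210), Anks4b (-0.93 ± 0.28, adjusted p = 0.0239), and Ctnnb1 (-0.17 ± 0.05, adjusted p = 0.0198) were higher in the LEC.

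Among cells that the cut tissue holds beside the meninges, all 8 oligodendrocyte markers rose in both regions (median LFC 6.39 in the MEC and 3.53 in the LEC). Of 6 astrocyte markers 5 rose and 1 fell in each region, as did 5 and 1 of 8 macrophage and microglia markers. Of 8 endothelial markers 3 rose and 0 fell in the MEC (2 and 2 without P2 replicates 1 and 3 of the MEC). In the LEC 3 of them rose and 2 fell (3 and 3 in that fit). Of 8 pericyte and smooth muscle markers 4 rose and 2 fell in each region (4 and 3 for the LEC in that fit). Of 7 neuron markers 4 rose and 1 fell in the MEC and 5 rose and 1 fell in the LEC. Without P2 replicates 1 and 3 of the MEC, 5 of them rose and 1 fell there, and 5 and 2 without P45 replicate 4 as well. All 4 tested blood genes rose in both regions.

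Within groups, the 8 genes varied together to different degrees. The deviations of log2 CPM from the 8 group means were compared over the 32 LII samples, which share their libraries and depths with each other, and are given as description. The correlation was 0.83 for Upk1b and Slc47a1, 0.82 for Krt8 and Cdh1, 0.81 for Krt8 and Calml4, 0.81 for Mpzl2 and Slc47a1, and 0.79 for Mpzl2 and Cdh1. With P2 replicates 1 and 3 and P45 replicate 4 of the MEC left out these were 0.81, 0.73, 0.55, 0.75, and 0.86. The correlations of Krt18 with the others ranged from -0.32 to 0.20, and from -0.16 to 0.24 without these 3 libraries.

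The genes most like the mean of the 8 genes in these deviations, among 11921 genes, were Anxa8 (r = 0.91), Evpl (0.91), Timp1 (0.90), Pdgfrl (0.89), Cxcl16 (0.89), Thbs2 (0.88), Anxa1 (0.88), Timp3 (0.87), Sdpr (0.85), and Tgfbi (0.85). Without the 3 MEC libraries, Anxa8, Timp3, Sdpr, and Evpl stayed among the 10 most alike, at ranks 2, 3, 5, and 9, and Smim5 came first with r = 0.89. Anxa8 encodes an annexin found in epithelia, and its mean level in LII was 2.85 CPM.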

How the data were processed

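Stranded, ribosomal RNA-depleted libraries of total RNA were made from 64 samples. The deposited values are counts of read pairs per gene, not normalized. Per the labels and the study's methods, the authors trimmed reads with Trimmomatic 0.33, aligned them to Rn6 with STAR 2.4.0, and counted pairs on RefSeq exons with featureCounts of Subread 1.4.6-p1. Pairs over several genes counted for each, and pairs mapping to several places were not counted, which can lower genes with near-identical copies. The methods describe the MEC, and dissection of the LEC was taken from the labels.

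CPM is the count per 1000000 counts of the library, whose size was scaled by TMM factors over 64 samples. Log2 CPM used the same factors and a prior count of 2. Tests used edgeR 4.0.16 (quasi-likelihood, TMM, filterByExpr) in R 4.3.3 on the 32 LII samples, with 8 group means, 12190 genes, Benjamini-Hochberg adjustment over all of them, and a threshold of 0.05. The study's methods used limma voom, which is an alternative here (limma 3.58.1), beside DESeq2 1.42.0, other normalization, no filter, other samples in the fit, a replicate block, and leaving out replicates. The replicate block was fitted in limma voom for age and for the steps, and in edgeR for region. For age its effect cannot be told apart from that of the other tool. Scripts were tested on simulated data. Tables and plots used Python 3.11.15. Counts of replicates differed beyond sampling noise in all 100 pairs compared. Depth ranged from 3894334 to 11439143 counts per sample, which covers counting error only.

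The 8 genes and all lists were chosen with earlier results of these data known. Named beside the 8 genes were up to 4 genes of each list with the highest mean CPM in LII, genes of the lists called between regions, the 5 highest keratins, and the 10 genes most alike among those with at least 1 CPM. Cldn4, Ocln, Mgp, Abcg2, Slc22a8, Slc47a2, Slc22a2, Zic4, Krt5, Krt14, Wt1, Bnc1, the other uroplakins, and the Upk1b window were named after their values were seen. The windows of Krt19 and Cdh1, and keratin proteins, were not analysed here.

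Samples of the same number were checked for pairing. Over 16 pairs of MEC and LEC samples, the correlation of deviations from group means ranged from -0.137 to 0.505 and was over 0.1 in 10, and the labels tie no number to an animal, so numbers were not treated as pairs in the tests. For the layer description, LII and LDeep samples of the same number were set side by side. The study says for its miRNA microarray samples of the MEC that both layers of an animal share a number, which is not stated for the samples used here.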

Additional observations from a re-analysis of the deposited data

Results flagged for a closer look

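In 17 of 94 groups of 4 or 5 samples, the highest or lowest log2 CPM lay farther from the rest than Dixon's critical value, where chance gives about 1 in 20 groups. In 9 of these 17 groups all other samples had 0 counts, so that any count would have stood out, and the rate of chance does not apply to them. The groups are not independent, since they share libraries.

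The LDeep library of MEC P2 replicate 1 was highest of its group for Krt8 (2.395, 35 counts), Upk1b (0.9842, 12 counts), Mpzl2 (1.768, 22 counts), and Slc47a1 (2.741, 45 counts). That of MEC P9 replicate 3 was highest for Upk1b (-0.1973, 6 counts), Mpzl2 (0.1033, 8 counts), and Cdh1 (2.355, 48 counts). That of MEC P45 replicate 2 was highest for Krt19 (-1.425, 1 count), Upk1b (-1.425, 1 count), Mpzl2 (0.6254, 12 counts), and Cdh1 (1.698, 28 counts).

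The LII library of MEC P45 replicate 4 was lowest of its group for Krt8 (1.158, 13 counts), Mpzl2 (1.057, 12 counts), and Slc47a1 (3.199, 59 counts). Replicate 3 of the same group was highest for Krt19 (2.737, 52 counts). In LDeep of the LEC, P2 replicate 4 was lowest for Krt8 (-1.91, 0 counts) and P9 replicate 4 was highest for Mpzl2 (-1.28, 1 count).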

How the results depend on the processing

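Of 1936 fold changes of the 8 genes under the alternatives, 1810 kept their direction and their side of the threshold, 16 lost the call, 42 gained one, and 68 had the other sign. These 68 passed the test neither with the alternative nor without it. The number of genes called with age ranged from 5 to 7 in the MEC and from 4 to 6 in the LEC. It stayed 0 for the region difference, its change with age, and the step from P23 to P45.

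From P2 to P9 in the LEC the count of 2 was 1 with limma voom and quantile normalization, 4 with the LEC samples alone, and 1 to 3 with a replicate left out. From P9 to P23 in the MEC the count of 2 was 1 with the MEC samples alone, 4 without P2 replicates 1 and 3, 4 without P45 replicate 4 as well, and 1 to 3 with a replicate left out. In the LEC the count of 1 was 2 with its samples alone. These 2 sets of left-out MEC libraries were chosen after seeing the data. With a prior count of 0.5 the layer difference in the LEC was 4.18 for Krt8, 5.09 for Upk1b, and 5.25 for Mpzl2. The causes were not tested.

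With the replicate block (limma voom, consensus correlation 0.101) the count from P2 to P9 in the LEC was 1, and 7 genes were called with age in the MEC, 5 with age in the LEC, 6 from P2 to P9 and 3 from P9 to P23 in the MEC. Of the MEC samples 7 correlated best with the LEC sample of their own number.

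With DESeq2 the log2 fold change with the other sign was that of Mpzl2 for region (0.011). With limma voom and quantile normalization the values with the other sign were for age in the LEC Calml4 -0.042, for region Cdh1 -0.20, for the region difference of the age change Krt8 0.58, Krt18 0.021, and Krt19 0.083, for P23 to P45 in the MEC Mpzl2 -0.036 and Cdh1 -0.064, for P23 to P45 in the LEC Krt19 -0.14 and Mpzl2 -0.010. With the replicate block the values with the other sign were for region Cdh1 -0.076, for the region difference of the age change Krt8 0.21, for P23 to P45 in the MEC Mpzl2 -0.071 and Cdh1 -0.086, for P23 to P45 in the LEC Krt19 -0.13. Without P2 replicates 1 and 3 of the MEC the values with the other sign were for region Krt18 -0.36 and Mpzl2 0.18, for the region difference of the age change Krt8 0.30 and Krt18 0.73. Without P45 replicate 4 as well the values with the other sign were for age in the MEC Calml4 0.16, for region Krt18 -0.31 and Mpzl2 0.26, for the region difference of the age change Krt8 0.47, Krt18 0.82, and Calml4 0.066, for P23 to P45 in the MEC Krt8 0.023, Upk1b 0.058, and Calml4 0.25. Leaving out 1 replicate number of an age turned the sign of values as well, and their range over these fits is given here. For age in the MEC it ran for Calml4 from -0.55 to 0.18. For region it ran for Mpzl2 from -0.24 to 0.12, Krt18 from -0.0027 to 0.15, Cdh1 from -0.080 to 0.19, Slc47a1 from -0.11 to 0.36, and Krt19 from -0.23 to 0.12. For the region difference of the age change it ran for Krt8 from -0.41 to 0.51, Calml4 from -0.61 to 0.14, Krt18 from -0.29 to 0.013, and Krt19 from -0.37 to 0.33. For P2 to P9 in the MEC it ran for Calml4 from -0.18 to 1.1. For P2 to P9 in the LEC it ran for Krt18 from -0.52 to 0.17 and Mpzl2 from -0.12 to 0.38. For P9 to P23 in the MEC it ran for Calml4 from -0.72 to 0.0054. For P9 to P23 in the LEC it ran for Krt8 from -0.0069 to 0.72 and Cdh1 from -0.095 to 0.46. For P23 to P45 in the LEC it ran for Slc47a1 from -0.73 to 0.25, Krt8 from -0.14 to 0.59, Mpzl2 from -0.048 to 0.46, and Krt19 from -1.03 to 1.27. For P23 to P45 in the MEC it ran for Calml4 from -0.53 to 0.32, Cdh1 from -0.071 to 0.58, Krt18 from -0.011 to 0.38, Krt8 from -0.56 to 0.018, and Upk1b from -0.48 to 0.063.

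Over all genes, the count for the region difference of the age change was 209, against 361 with DESeq2, 316 without P2 replicate 1, 100 without P23 replicate 1, 86 without P23 replicate 3, and 443 and 452 without 2 and 3 MEC libraries. From P23 to P45 the count of 10 in the MEC ranged from 2 to 24 and that of 25 in the LEC from 4 to 274. Low LDeep counts limit the layer differences, and 3 to 5 samples a group limit the tests.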
